A study of Mus musculus with 12 samples.

Results

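The subject is a module of 37 genes of the cell cycle and of DNA replication, chosen by name and sorted by the phase in which each is known to act. They were found by gene symbol among the probes of the array. Of the 37, 35 had a probe named here, with 85 probes of the 45281 on the array, and 23 could be tested, among 8819 genes tested in all. Ccnb1 and Mki67 were not analysed here. Bulk liver RNA of insulin-deficient mice of mixed strain background was hybridized to Illumina Mouse-6 V2 BeadChips. One group received leptin, the adipose hormone whose receptors in the brain govern appetite and glucose balance, by an infusion into a brain ventricle (icv) of 25 ng in 0.11 µL per hour, and its livers were taken on day 10. The other group received phosphate-buffered saline (PBS) by the same route, with volume and day not given in the labels. Both groups shared the insulin deficiency, and the way it was made, the sex and the age are not given in the sources used here. Each group held 6 arrays, numbered 1 to 6, and every mean ± SD rests on n = 6 arrays per group. Nothing in the labels says that each array is a separate mouse, so the spread behind the p-values is that among these samples and may be technical in part.

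A cell that leaves quiescence makes D-type cyclins, which bind Cdk4 or Cdk6 and phosphorylate the retinoblastoma protein. This frees E2F factors, which switch on the genes for DNA replication, such as the MCM helicase subunits and the enzymes of nucleotide synthesis. Genes of mitosis follow, repressed outside that time by complexes that bind a CHR element near their start, while CDK inhibitors such as p21 hold the cycle back. Most hepatocytes of an adult liver are quiescent, and the few cycling cells can belong to any cell type of the organ.

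Levels are background-corrected, quantile-normalized intensities on the log2 scale, and a probe counted as detected on an array when its deposited detection p was below 0.01. Between 13381 and 14431 probes were detected per leptin array, and between 13159 and 13954 per PBS array. All 6 hepatocyte markers tested were detected in both groups, and 1 of them, Alb, was lower with leptin. Its probe was dim, with means of 6.27 with leptin and 7.10 with PBS, where the detection floor was 5.18 to 5.44. Means of Ttr, Apoa1 and Apoa2 were 14.60 to 15.33, and none of these was called. The Alb probe is therefore a poor measure of hepatocyte content. Some markers of other cell types moved with leptin, where 8.31% of all genes were higher and 8.4% lower. Of 9 tested Kupffer cell and macrophage markers 4 were higher, among them Timd4, C1qa and Clec4f, and their summed intensity was 8881 to 24070 on leptin arrays and 5947 to 12910 on PBS arrays. All 4 tested lymphocyte markers were higher, among them Cd3d, Cd3g and Cd79b. Their sums were 161.1 to 408.2 on leptin arrays and 107.9 to 127.1 on PBS arrays. Cd3d was detected on 6 leptin and 3 PBS arrays, Cd79b on 6 and 1, Cd3g on 4 and 0, and the remaining marker on 5 and 0. Markers detected mainly on leptin arrays pass the detection filter through them, so this count of 4 gives no test of lymphocytes. Cd4, Cd8a and Ms4a1 were detected on no array. Of 7 endothelial markers 2, Cdh5 and Stab2, were higher, and their sums of 6084 to 9044 on leptin arrays overlapped those of 4351 to 9110 on PBS arrays. No marker of stellate cells (of 5), neutrophils (of 4), erythroid cells (of 3) or cholangiocytes (of 2) was called. The summed level of the 4 neutrophil markers was 7173 on leptin 4, with 179.6 to 2614 on the other leptin arrays, and 6452 on PBS 2, with 176.3 to 587.7 on the other PBS arrays. The part of other cells in the results was not tested. In bulk tissue, fewer cells of a type and less RNA per cell cannot be told apart. Leptin 4 stood apart, with a mean correlation of 0.957 to the rest of its group, against 0.973 to 0.976 for the other leptin arrays. Correlations were taken across all probes detected on at least 3 of the 12 arrays. PBS 2 had the lowest of the PBS arrays (0.965), close to the next (0.968).

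Of the 35 members, 13 were detected on all 12 arrays, 17 on some and 5 on none. The 4 G1 members (Ccnd1, Ccnd2, Ccnd3 and Cdk4) were detected on every array. No G2 or mitotic member was detected on all 12. The cyclins Ccne2, Ccna2 and Ccnb2, the origin-licensing factor Cdc6 and the Cdk1-inhibiting kinase Wee1 were detected on none, with deposited signals of 104.9 to 134.0 over their 9 probes, against a median of 118.9 over all probes. Of the 17 members detected on some arrays, 13 were detected on more leptin than PBS arrays, 3 on more PBS than leptin arrays (Aurka, Mcm3 and Pcna, each on 1 PBS array) and Rrm2 on as many of each. The number of member genes detected was 17 to 26 per leptin array and 14 to 22 per PBS array. Over all probes, 13381 to 14431 were detected per leptin array and 13159 to 13954 per PBS array, ranges that also overlapped. The part of this in the member counts was not tested, and no such balance was taken over all genes. Too few detections left 7 further members untested, namely the cyclin Ccne1, the helicase subunit Mcm3, the helicase accessory subunit Gins2, the sliding clamp Pcna, the topoisomerase Top2a and the mitotic kinases Aurka and Aurkb.

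**Figure D1:**
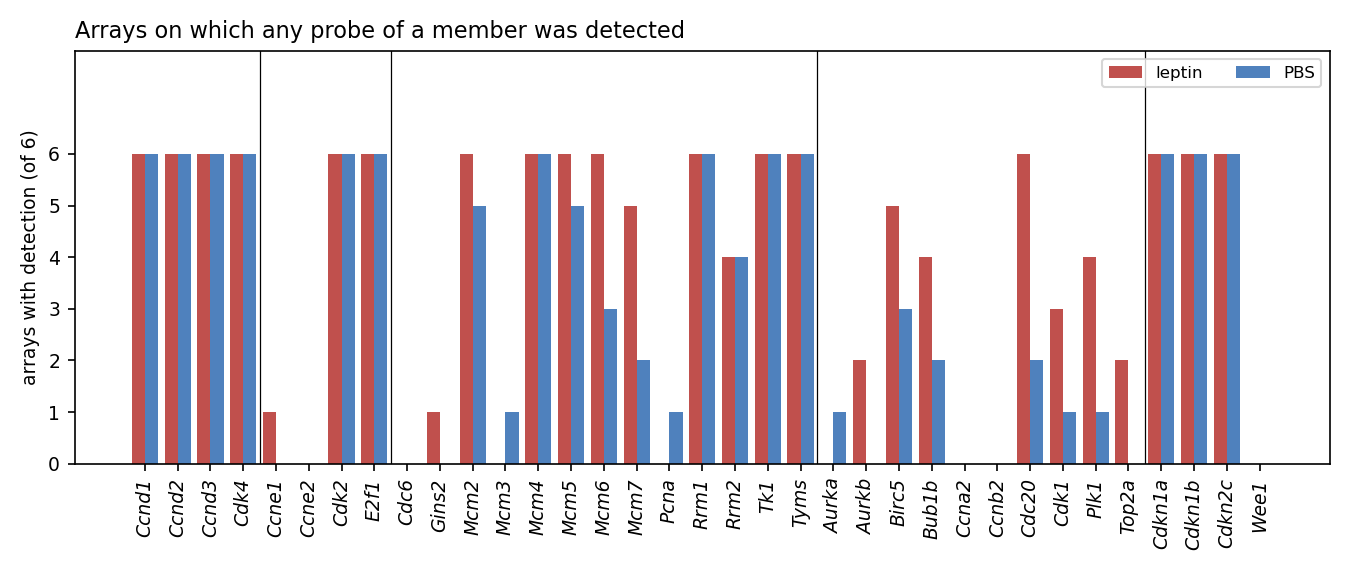
Number of arrays, of 6 per group, on which any probe of a member was detected (detection p below 0.01), with leptin bars left of PBS bars and thin lines between G1, G1/S, S phase, G2 and mitosis, and inhibitors. The 4 G1 members reach 6 in both groups, and Cdc20 reaches 6 with leptin and 2 with PBS.

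Among the 23 tested members 4 rose with leptin (Ccnd1, Ccnd2, Mcm4 and Cdc20), 2 fell (Ccnd3 and Cdkn1a) and 17 did not pass an adjusted p of 0.05. Leaving out 1 array at a time gave 3 to 7 that rose, with 7 without PBS 2, and 1 or 2 that fell. Over all 8819 genes the test called 16.7%, with 8.31% higher and 8.4% lower. The median log2 difference, leptin minus PBS, was 0.37 over the tested members and 0.0039 over all genes. Of the tested members 20 had a difference above 0, and Ccnd3, Cdkn1a and Cdkn1b had one below 0, while 49.5% of all genes were below 0. A member detected only where it is high passes the detection filter more easily, so these counts over tested members describe the members and give no test of the module. At the probe that stood for the gene, the leptin and PBS arrays did not overlap for 3 members (Ccnd1, Ccnd2 and Ccnd3), and for 7.28% of all genes. Over the 41 member probes that passed the detection filter, 7 were higher and 3 lower, where 18.1% of all such probes were called.

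Of the 4 G1 members, Ccnd1 and Ccnd2 rose, Ccnd3 fell and Cdk4 did not pass the test. Ccnd1, the D-type cyclin known for its induction in regenerating liver, had a lowest, median and highest level of 11.23, 11.66 and 12.29 on leptin arrays, against 9.34, 10.52 and 10.95 on PBS arrays. Every leptin array lay above every PBS array. The log2 difference was 1.42 ± 0.30 (SE, limma adjusted p = 0.00698), which is 2.68-fold, with means of 11.76 ± 0.44 with leptin and 10.34 ± 0.69 with PBS (SD). All 3 Ccnd1 probes were called, with differences of 1.42, 1.45 and 1.10. Ccnd2, another D-type cyclin, had 7.80, 8.07 and 8.20 on leptin arrays, against 6.62, 7.08 and 7.55 on PBS arrays. Here too the groups were apart, and the leptin arrays lay close together. Its difference was 0.93 ± 0.15 (adjusted p = 0.00154), or 1.91-fold, and 2 of its 4 probes were detected and called, the other 2 being detected on no array.

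Ccnd3, the D-type cyclin best known from lymphoid cells, went the opposite way, with 9.06, 9.63 and 9.90 on leptin arrays, against 9.93, 10.07 and 10.43 on PBS arrays. The highest leptin array lay just below the lowest PBS array, and leptin 2 was lowest of all. The difference was -0.54 ± 0.14 (adjusted p = 0.0223), a 1.45-fold lower level with leptin. The other tested Ccnd3 probe gave -0.72, and there the groups overlapped, with leptin 1 at 6.84 and PBS 3 at 6.71. With the mean standardized level of clock genes per array as a covariate, the difference at the first probe was -0.38 (adjusted p = 0.119). Some of those clock genes themselves rose or fell with leptin, so that level depends in part on the group. Cdk4, the kinase that these cyclins activate, had means of 8.38 ± 0.19 with leptin and 8.23 ± 0.35 with PBS (difference 0.15, 95% interval -0.20 to 0.49, adjusted p = 0.563). The authors' deposited table marks as up 2 Ccnd1 probes (log2 differences 1.35 and 1.35) and 2 Ccnd2 probes (0.61 and 0.50), and no other member probe carries a mark of change.

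**Figure D2:**
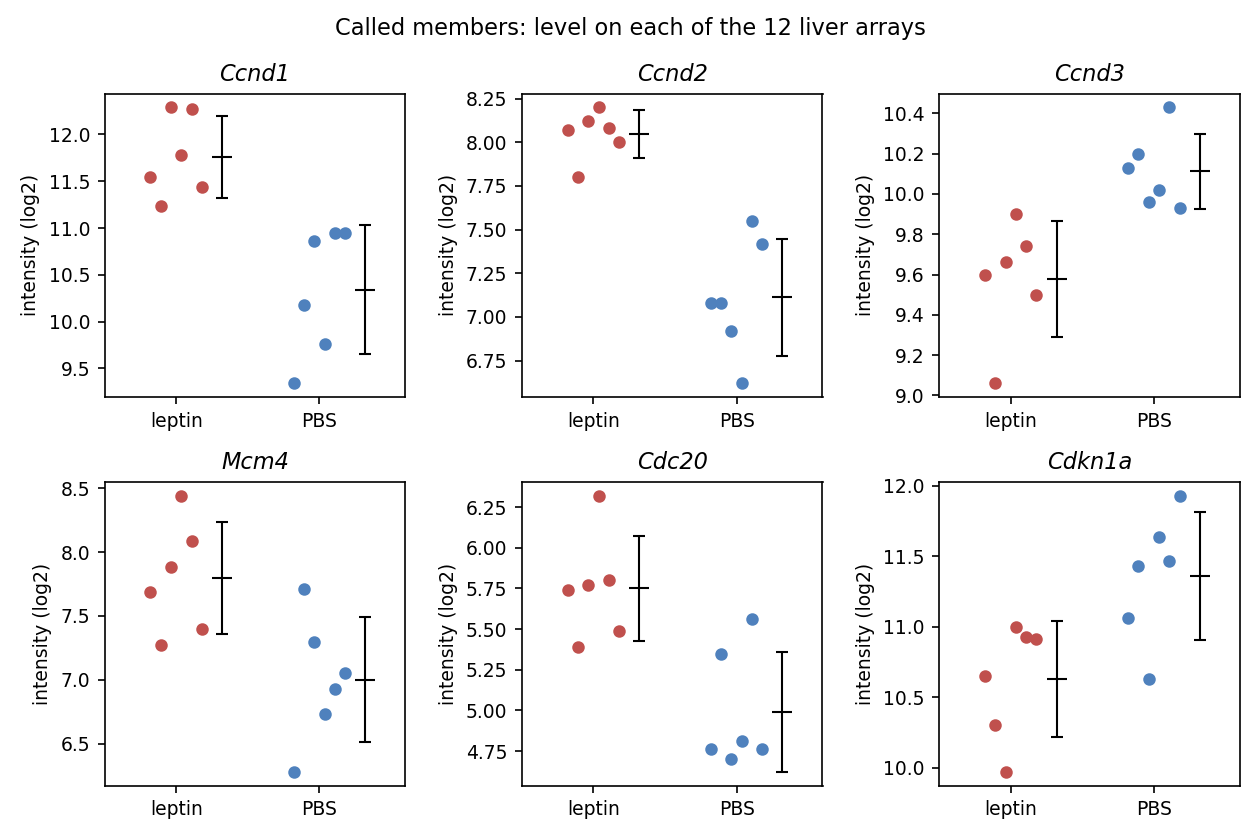
Log2 intensity of the 6 called members on each array, with one point per array, leptin left of PBS, and a bar for the mean with SD (n = 6) beside each group. Ccnd1, Ccnd2 and Ccnd3 have no overlap between groups, while for Mcm4, Cdc20 and Cdkn1a at least 1 PBS array lies within the leptin range.

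Neither tested member of the G1 to S passage was called. Cdk2, the kinase partner of cyclins E and A, had means of 8.28 ± 0.14 with leptin and 8.04 ± 0.19 with PBS, a difference of 0.24 (adjusted p = 0.160). The other tested Cdk2 probes gave 0.09 and -0.01, and neither was called. E2f1, a transcription factor that activates replication genes, had 6.44 ± 0.34 with leptin and 6.28 ± 0.40 with PBS, a difference of 0.16 (adjusted p = 0.621).

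Of the 13 S phase members 9 were tested, all with a difference above 0 at the probe that stood for the gene, and 1, Mcm4, was called. The MCM proteins form the ring-shaped helicase that opens DNA at replication forks. Mcm4 had 7.27, 7.79 and 8.44 on leptin arrays, against 6.28, 6.99 and 7.71 on PBS arrays. PBS 2, the highest PBS array, and PBS 3 lay within the leptin range. The difference was 0.80 ± 0.24 (SE, adjusted p = 0.0379), or 1.74-fold, while the other 2 Mcm4 probes were detected on no array. This call was lost when leptin 1, leptin 3, leptin 4, leptin 5, PBS 1, PBS 4, PBS 5 or PBS 6 was left out, with adjusted p between 0.0553 and 0.0789, without PBS 3 and leptin 4 together (0.0576) and without a filter on detection (0.0856).

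The other helicase subunits had differences of the same sign that did not pass the test. Mcm5 had 6.38, 7.29 and 8.27 on leptin arrays, against 5.12, 6.16 and 7.60 on PBS arrays. PBS 2 was the highest PBS array, above leptin 1, leptin 2, leptin 5 and leptin 6. The Mcm5 difference was 1.01 ± 0.40 (adjusted p = 0.0941), and leaving out 1 array gave 0.79 without PBS 1 (adjusted p = 0.184) to 1.29 without PBS 2 (adjusted p = 0.0218), with the call gained without PBS 2 alone. Mcm6 had a difference of 0.61 ± 0.24 (adjusted p = 0.0903), was detected on 6 leptin and 3 PBS arrays, and gave 0.51 without PBS 1 (adjusted p = 0.173) to 0.74 without PBS 2 (adjusted p = 0.0391). Mcm2 had a difference of 0.26 ± 0.27 (adjusted p = 0.537), which was 0.06 without leptin 4, and Mcm7 one of 0.23 ± 0.12 (adjusted p = 0.229). The other tested Mcm7 probe gave 0.009, and the other tested Mcm6 probes gave 0.26 and 0.64, none of them called.

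The 4 tested members that make nucleotides for replication were not called. Tk1, the thymidine kinase of the salvage pathway, had levels of 7.94 to 9.05 on leptin arrays, against 6.73 to 8.64 on PBS arrays, where PBS 4 was lowest. Its difference was 0.59 ± 0.28 (adjusted p = 0.163). Thymidylate synthase, Tyms, had 7.89 ± 0.23 with leptin and 7.86 ± 0.36 with PBS, a difference of 0.04 with a 95% interval of -0.32 to 0.40 (adjusted p = 0.906). The ribonucleotide reductase subunits Rrm1 and Rrm2 had differences of 0.10 ± 0.14 (adjusted p = 0.669) and 0.18 ± 0.18 (adjusted p = 0.512). The other tested Rrm2 probe, of similar level, gave -0.12, with detection on 0 leptin and 3 PBS arrays, and was not called.

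Windows from 250 bases before to 50 bases after a gene's start were taken from RefSeq (GRCm38.p6) for 29 of the 37 members, 33 windows in all, with none for Ccnd1, Ccnd2 or Mcm4. An E2F site, searched as TTTCCCGC or TTTGGCGC on both strands, stood in 6 of the 33 member windows (18.2%), those of Cdk2, Cdc6, Mcm3, Mcm5, Mcm6 and Mcm7, and in 1.56% of 32851 windows. The windows of Mcm5 and Mcm6, the helicase subunits with a window whose differences were greatest, are shown, as members of 1 complex, with the E2F site in capitals, Mcm5 at chr8:75109259-75109558 on the plus strand and Mcm6 at chr1:128359656-128359955 on the minus strand.
Mcm5: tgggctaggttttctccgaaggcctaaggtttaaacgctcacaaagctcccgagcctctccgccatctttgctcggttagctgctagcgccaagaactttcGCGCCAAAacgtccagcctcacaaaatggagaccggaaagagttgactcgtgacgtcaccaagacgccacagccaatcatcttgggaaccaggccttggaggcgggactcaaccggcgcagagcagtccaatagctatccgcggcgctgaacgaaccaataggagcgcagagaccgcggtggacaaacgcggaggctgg
Mcm6: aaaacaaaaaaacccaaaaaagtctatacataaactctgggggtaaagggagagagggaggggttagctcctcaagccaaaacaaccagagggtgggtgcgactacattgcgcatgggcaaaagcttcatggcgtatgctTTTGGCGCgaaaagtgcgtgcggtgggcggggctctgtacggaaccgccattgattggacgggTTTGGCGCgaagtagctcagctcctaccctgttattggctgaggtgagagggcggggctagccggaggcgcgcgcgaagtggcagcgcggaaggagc
In Mcm5 the match is on the opposite strand at -149, and in Mcm6 it occurs at -110 and at -47, counted from 0 at the first transcribed base. A match of letters is a description and not a bound site.

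Of the 12 G2 and mitotic members 5 were tested, all with a difference above 0 and a median of 0.57, and 1, Cdc20, was called. Cdc20 activates the ubiquitin ligase that ends mitosis. It had 5.39, 5.76 and 6.32 on leptin arrays, against 4.70, 4.79 and 5.56 on PBS arrays. Only PBS 5 lay within the leptin range, since PBS 2 was just below the lowest leptin array. The difference was 0.76 ± 0.19 (SE, adjusted p = 0.0160), or 1.69-fold, and the probe, the only one of 4 detected often enough to test, was detected on 6 leptin and 2 PBS arrays. The fold understates a change near background, because an offset of 16 is added to every intensity.

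The other 4 tested mitotic members did not pass the test. Cdk1, the kinase that drives entry into mitosis, had a difference of 0.58 ± 0.25 (adjusted p = 0.121). Plk1, a kinase of spindle assembly, had a difference of 0.55 ± 0.24 (adjusted p = 0.127) over all 12 arrays, from 0.45 without leptin 4 (adjusted p = 0.220) to 0.74 without PBS 2 (adjusted p = 0.0204). Birc5, which encodes survivin of the chromosomal passenger complex, had a difference of 0.57 ± 0.34 (adjusted p = 0.263) at its brightest probe, which was 0.31 without leptin 4. Its other 2 kept probes were detected on 2 leptin and 1 PBS arrays and on 3 leptin and 0 PBS arrays, and neither was called. Bub1b, a kinase-related protein of the spindle checkpoint, had a difference of 0.51 ± 0.26 (adjusted p = 0.197). Leptin 4 was the highest of the 12 arrays for Cdc20 and for these 4.

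The CHR element, searched as TTTGAA on both strands, stood in 9 of the 33 member windows (27.3%) and in 17.9% of all windows. Mitotic members with it were Ccnb2, Cdk1, Cdc20, Top2a, Mki67, Bub1b, Aurka and Plk1, and Mcm2 was the S phase member. The windows of Cdc20, the called mitotic member, at chr4:118437294-118437593, and of Cdk1 at chr10:69352863-69353162, both on the minus strand, are shown with TTTGAA in capitals.
Cdc20: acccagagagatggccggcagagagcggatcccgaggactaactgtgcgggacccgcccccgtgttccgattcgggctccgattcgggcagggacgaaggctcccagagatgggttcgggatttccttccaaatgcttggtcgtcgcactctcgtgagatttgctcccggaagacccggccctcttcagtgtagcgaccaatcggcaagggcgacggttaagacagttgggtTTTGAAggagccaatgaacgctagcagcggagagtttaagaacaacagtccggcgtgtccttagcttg
Cdk1: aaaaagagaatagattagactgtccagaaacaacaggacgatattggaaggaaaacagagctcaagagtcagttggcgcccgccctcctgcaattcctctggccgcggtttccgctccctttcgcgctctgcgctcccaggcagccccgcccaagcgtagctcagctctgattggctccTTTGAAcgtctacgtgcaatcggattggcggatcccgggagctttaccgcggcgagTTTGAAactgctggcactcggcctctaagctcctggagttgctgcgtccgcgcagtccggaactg
The element begins at -18 in Cdc20, and at -71 and -15 in Cdk1. Motifs of clock factors were counted in the same windows. The E-box CACGTG stood in 3 of 33, against 7.15% of all windows, the D-box TTATGTAA in 0, against 0.938%, and the ROR element, AGGTCA after A or T, in 3, against 7.16%.

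Arrays of one group differed in these genes. Over the 14 tested members of both phases, the mean log2 level was 6.46, 5.97, 6.43, 6.90, 6.49 and 6.08 on leptin arrays 1 to 6, against 5.61, 6.32, 5.74, 5.67, 6.17 and 5.91 on PBS arrays 1 to 6. The groups overlapped, with PBS 2 and PBS 5 above leptin 2 and leptin 6. Leptin 4 was highest of its group for 9 of the 14, PBS 2 was highest of its group for 8, and leptin 2 was lowest of its group for 9. Leptin 4 also held the highest summed level of lymphocyte and of Kupffer cell markers among leptin arrays, and PBS 2 held the highest of both among PBS arrays, by a small margin for lymphocyte markers. The neutrophil sums were highest on the same arrays. The part of those cells in this was not tested. Without leptin 4 and PBS 2, a choice made after seeing the data, 6 members rose (Ccnd1, Ccnd2, Cdc20, Mcm4, Mcm5 and Plk1) and the same 2 fell, while 18.1% of all genes were called. With the clock gene level as a covariate 11 members rose and 0 fell by limma (1 was lower at an unadjusted p below 0.05), while 17.0% of all genes were called. The 7 members gained were Birc5, Bub1b, Cdk1, Mcm2, Mcm5, Mcm6 and Plk1. This level is a plain mean over 11 genes, of which 3 rose and 2 fell with leptin, so it is not a clock phase. Since it depends in part on the group, clock and leptin cannot be told apart in this fit.

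**Figure D3:**
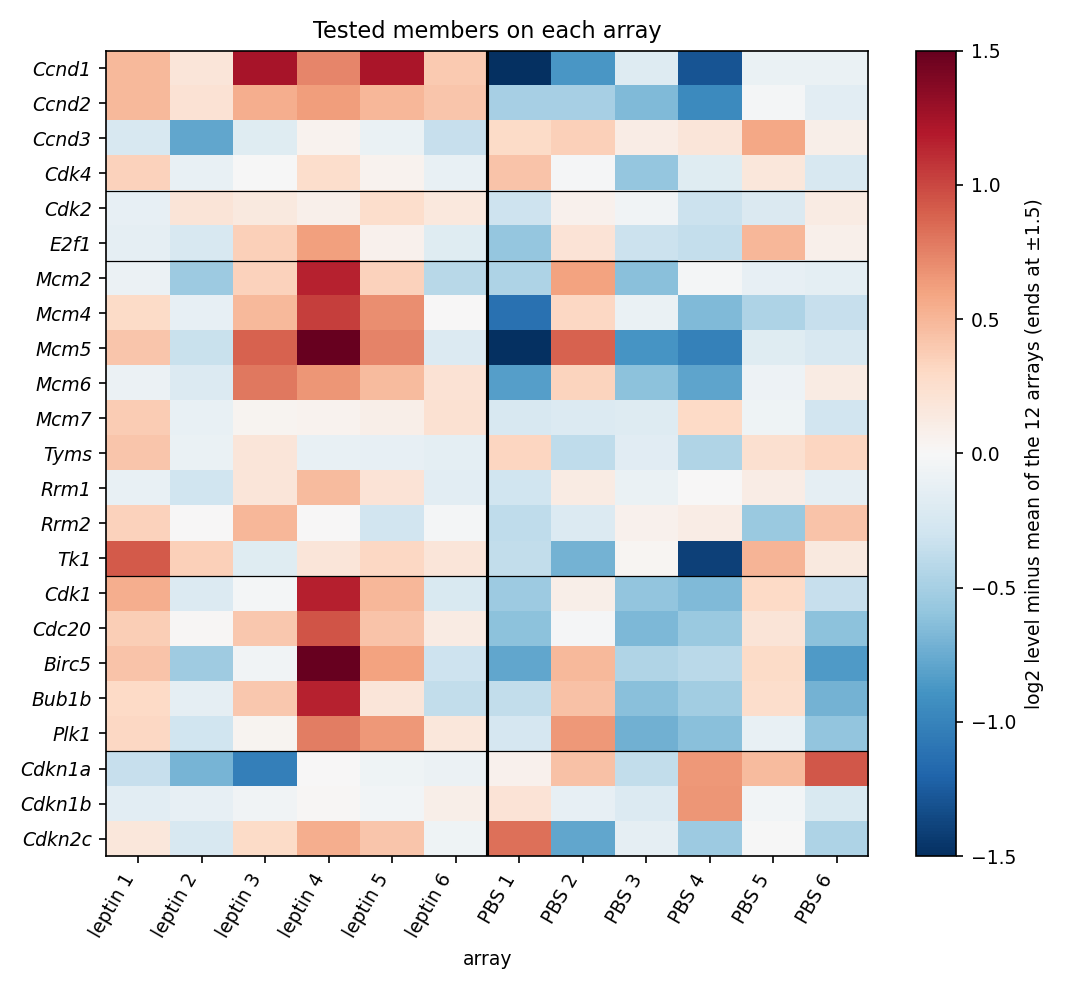
Log2 level of each of the 23 tested members on each array minus its mean over the 12 arrays (colour, ends at 1.5 in either direction), with leptin arrays left of the heavy line and thin lines between phases. In S phase and mitosis leptin 4 and PBS 2 stand out within their groups, while Ccnd1 and Ccnd2 separate the groups on every array.

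Of 3 tested inhibitors 1 was called. Cdkn1a, which encodes the CDK inhibitor p21, had 9.97, 10.78 and 11.00 on leptin arrays, against 10.63, 11.45 and 11.93 on PBS arrays. PBS 3 alone of the PBS arrays lay within the leptin range. The difference was -0.73 ± 0.23 (SE, adjusted p = 0.0422), a 1.66-fold lower level with leptin. This was 1 called probe of 3, with the others at -0.27 (adjusted p = 0.461) and -0.67 (adjusted p = 0.0914). The call was lost without leptin 1, leptin 2, leptin 3, leptin 5, PBS 2, PBS 4, PBS 5 or PBS 6, with adjusted p between 0.0507 and 0.0878, without a filter on detection (0.0915), with the mean of the probes (-0.56, adjusted p = 0.122) and with the clock gene level as a covariate (-0.50, adjusted p = 0.205). Cdkn1b, which encodes p27, had 5.56 ± 0.09 with leptin and 5.65 ± 0.34 with PBS (difference -0.09, adjusted p = 0.695). Cdkn2c, which encodes the Cdk4 and Cdk6 inhibitor p18, had 7.75 ± 0.29 with leptin and 7.38 ± 0.57 with PBS (difference 0.37, adjusted p = 0.300), and without PBS 1, its highest PBS array, the difference was 0.57 (adjusted p = 0.0491).

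**Figure D4:**
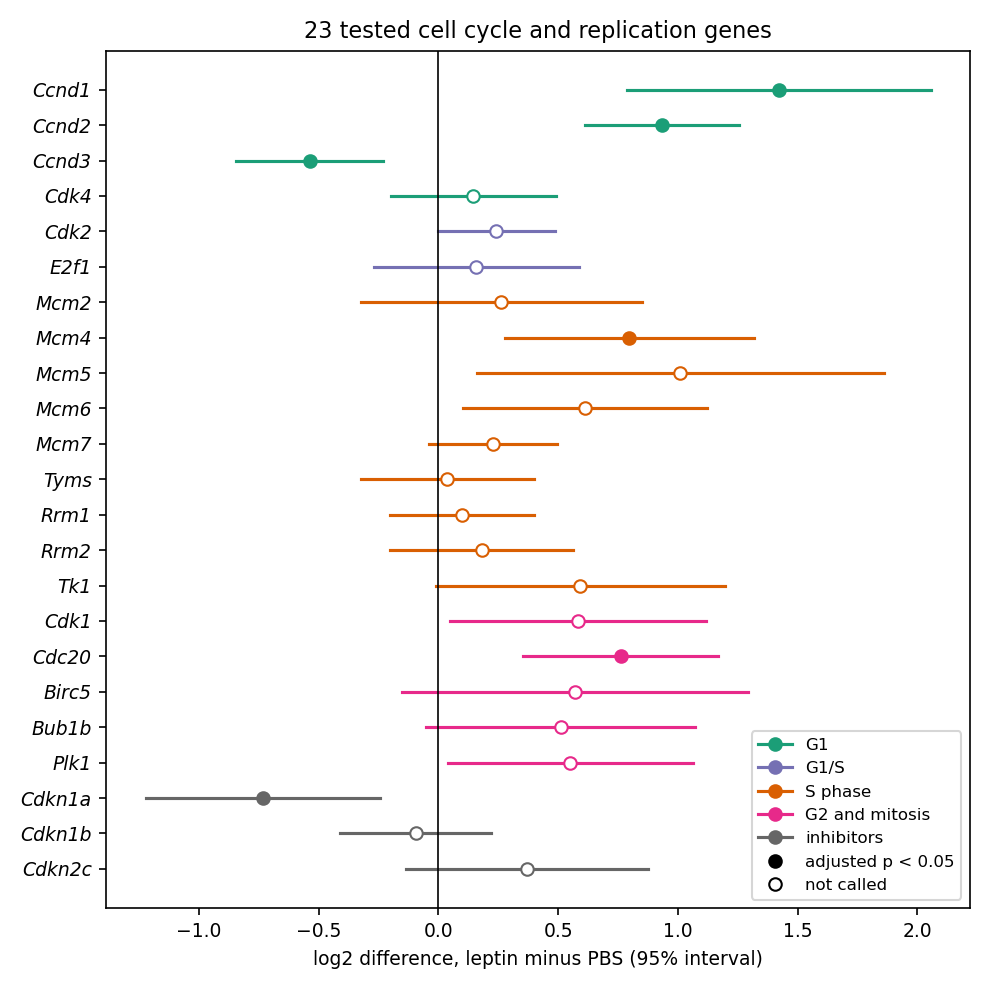
Log2 difference, leptin minus PBS, with its 95% interval for the 23 tested members, coloured by phase, filled where the adjusted p was below 0.05. The 4 filled points right of 0 are Ccnd1, Ccnd2, Mcm4 and Cdc20, and the 2 left of 0 are Ccnd3 and Cdkn1a.

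Further genes of the pathway came from wider lists, whose counts stand beside 8.31% higher and 8.4% lower over all genes. A gene detected mainly on leptin arrays passes the detection filter through them, so the counts describe these lists and give no test of them. In G1 and G1/S control 2 of 18 tested genes rose and 1 fell, with a median of -0.04. Myc, the growth-promoting transcription factor, was detected on 6 leptin and 0 PBS arrays, and so passed the detection filter through leptin arrays alone. It was at least 1.90-fold higher with leptin (limma adjusted p = 0.000726). That bound was taken, per PBS array, against the array's lowest detected signal or this probe's own level, whichever is higher. Leaving out 1 array, that bound was at its lowest 1.72-fold, without leptin 2. E2f6, a repressor of the E2F family, rose by 0.43 ± 0.12 at the probe that stood for the gene. Its other 4 probes gave -0.31 to 0.20 and were not called. E2f3, an activator of the same family, fell by 0.52 ± 0.13 with no overlap of the groups.

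In DNA replication and S phase 5 of 40 rose and 2 fell, with a median of 0.04. Over all genes 8.31% were higher and 8.4% lower. Mcm10, which helps to start replication forks, rose by 1.79 ± 0.44, the DNA ligase Lig1 rose by 0.86 ± 0.20, the chromatin assembly subunit Chaf1b by 0.74 ± 0.10, and the DNA polymerase delta subunit Pold1 by 0.74 ± 0.14. The leptin and PBS arrays did not overlap for Chaf1b and Pold1. Gins1, a subunit of the same helicase accessory complex as Gins2, fell by 0.54 ± 0.13 with no overlap of the groups, and Pole3, a DNA polymerase epsilon subunit, fell by 0.39 ± 0.13 with 1 of 3 probes called.

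In G2 and mitosis 3 of 22 rose and 1 fell, with a median of -0.05, where 8.31% of all genes were higher and 8.4% lower. Of the 72 genes named 40 were detected on no array. Cenpa, the histone H3 variant of centromeres, rose by 1.12 ± 0.20 without overlap of the groups. Prc1, a protein of the central spindle, rose by 1.06 ± 0.29, with detection on 6 leptin and 2 PBS arrays. Nusap1, a spindle-associated protein, passed the detection filter through leptin arrays alone, with detection on 4 leptin and 0 PBS arrays. It was at least 1.02-fold higher (adjusted p = 0.0141), but without leptin 4 or leptin 5 the leptin mean was no longer above the PBS detection floor and no bound remained. Cdc23, a subunit of the ubiquitin ligase that Cdc20 activates, fell by 0.64 ± 0.13.

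Among 7 other CDK inhibitors and antiproliferative factors 2 rose and 1 fell, where 8.31% of all genes were higher and 8.4% lower. Cdkn1c, which encodes the CDK inhibitor p57, had 7.71 ± 0.22 with leptin and 8.67 ± 0.37 with PBS, a difference of -0.96 ± 0.17 (adjusted p = 0.00280) with no overlap of the groups. Cables1, a CDK-binding protein, rose by 1.19 ± 0.24. Cdkn3, a phosphatase that acts on CDKs, also passed the filter through leptin arrays alone, with detection on 3 leptin and 0 PBS arrays. It was at least 1.02-fold higher (adjusted p = 0.0319), but without leptin 4 its leptin mean of 5.19 lay below the PBS detection floor of 5.34 and no bound remained.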

How the data were processed

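Liver RNA of 6 leptin and 6 PBS arrays was grouped by the labels' sample group, with dose, volume and day from the series' design text. Per the file headers, the deposited intensity values are AVG_Signal columns, each beside a column of detection p-values. Despite a name that says non-normalized, these signals already had equal distributions on all arrays, with no background subtracted. The authors' deposited log2 values equalled log2 of these signals, and the authors' Cyber-T comparison (so called in its headers) holds p-values and log2 differences. What software equalized the signals is not given in the sources.

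Symbols came from the GEO platform annotation (34885 of 45281 probes with 1 symbol, 18 with several, 10378 with none), of which 34807 were found in a RefSeq table of GRCm38.p6 and 0 changed. Signals were corrected with limma's neqc (offset 16, quantile normalization, log2). Probes with a detection p below 0.01 on at least 3 of 12 arrays were kept (15062), and the kept probe of highest mean stood for a gene. Groups were compared with limma's lmFit and eBayes, two-sided, with Benjamini-Hochberg adjustment over all 8819 genes, or over all kept probes, at 0.05. The fit was tested on simulated data. Summed marker levels are linear intensities, offset included. Every member is named, with lowest, median and highest values for those with a called probe, and up to 4 called genes each way per wider list and 3 per p53, clock and marker list. Values of Mcm5 and Tk1 per array were added to show their spread.

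The members and lists were chosen with earlier results of these data known. Alternatives were other backgrounds, normalizations, filters, probe rules, variance models, array weights, the authors' p-values, a replicate block, a clock covariate and leaving out arrays. No slide is named, so no batch could be tested. The number of arrays limits the precision. R 4.3.3, limma 3.58.1, Python 3.11.15, pandas 2.3.3, numpy 2.4.6 and matplotlib 3.10.9 were used.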

Additional observations from a re-analysis of the deposited data

Results flagged for a closer look

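In 3 of 80 groups of 6 arrays examined, over tested members and the called genes of the wider lists, the highest array stood far from the nearest other, where chance would pick out about 1 in 20. Mcm7, a helicase subunit, read 5.78 on PBS 4, with the other PBS arrays between 5.19 and 5.41. Cdkn3, the CDK-directed phosphatase, read 6.25 on leptin 4, with the other leptin arrays between 4.97 and 5.29. Myc read 5.05 on PBS 4, with the other PBS arrays between 4.46 and 4.68, all of them below detection.

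Some untested members gave signal on leptin arrays and on 0 PBS arrays. Ccne1, cyclin E1, was detected on 1 array, leptin 6. Gins2 was detected on 1 array, leptin 4, by each of 2 probes. Top2a, the topoisomerase that untangles replicated chromosomes, was detected on 2 arrays, leptin 4 and leptin 5. Aurkb, the kinase of the chromosomal passenger complex, was detected on 2 arrays, leptin 4 and leptin 5. These detections were too few for a test of the groups.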

How the results depend on the processing

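Ccnd1, Ccnd2 and Cdc20 were called under all 26 alternatives run, and Ccnd3 under all but the clock covariate. Mcm4 and Cdkn1a each lost their call in 11 of 26, with adjusted p from 0.0145 to 0.0856 for Mcm4 and from 0.00962 to 0.205 for Cdkn1a. With the clock covariate 11 members were higher and 0 lower, and 16 member probes were higher and 0 lower. Without a filter on detection 35 members were tested, 3 were higher and 1 lower, with 6.39% of all genes called, as more genes entered the adjustment. With the mean of a gene's probes 1 was lower. Leaving out 1 array gave 3 to 7 members higher, 1 to 2 lower, 5 to 11 member probes higher and 2 to 4 lower, the highest counts of higher members and probes being those without PBS 2. Where not said otherwise, the cause was not tested. Signs turned for Mcm2 (-0.040 without PBS 3 and leptin 4), for Tyms (-0.0077 without leptin 4 and PBS 2, and -0.0503 to 0.106 leaving out 1 array) and for Cdkn1b (-0.151 to 0.0300 leaving out 1 array), none of them called. The sets without PBS 3 and leptin 4 or without leptin 4 and PBS 2 were set after results of these data were known. With a replicate block 3 members were higher and 2 lower, as Mcm4 had an adjusted p of 0.0695. Deviations of arrays with the same number correlated from -0.32 to 0.46. The labels name no pairing, and these correlations alone cannot settle whether the numbers pair samples. A slide block was not run, as slides are not given. Members near background are limited by signal, and their folds are understated.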

Other observations

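Mcm10, a replication factor that helps to start forks, had the greatest rise of the wider replication list, and was looked at further after its values were seen. Its brightest probe read 11.50, 12.79, 11.62, 10.13, 9.87 and 11.99 on leptin arrays 1 to 6, against 9.95, 8.75, 9.97, 8.92, 9.66 and 9.95 on PBS arrays 1 to 6. The difference was 1.79 ± 0.44 (SE, limma adjusted p = 0.0157), and the other kept probe gave 1.65. Leptin 4 and leptin 5 were its lowest leptin arrays, while leptin 4 was the highest array for Mcm2, Mcm4 and Mcm5. At the brightest probe of each gene PBS 2, the highest PBS array for Mcm2, Mcm4, Mcm5 and Mcm6, was the lowest for Mcm10. At the other kept Mcm10 probe PBS 4 was lowest (6.54), below PBS 2 (6.78). What sets the Mcm10 probes apart was not tested.

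Of 15 tested p53 targets other than Cdkn1a, 1 was called, against 16.7% of all genes, with a median difference of -0.07 over the 15. This was Ei24, a protein of the endoplasmic reticulum, which fell by 0.58 ± 0.10 (adjusted p = 0.00186), at both of its kept probes and with no overlap of the groups. Of 11 tested clock genes 3 rose and 2 fell, where 8.31% of all genes were higher and 8.4% lower. Dbp, a clock output factor, rose by 2.65 ± 0.53. Clock, an activator of the core loop, fell by 1.03 ± 0.14, and its partner Arntl was detected on 0 leptin and 5 PBS arrays and was at least 1.95-fold lower with leptin. The clock level used as a covariate was lowest on leptin 4 (-0.74) and PBS 2 (-0.62), and ran from 0.18 to 0.60 on the other leptin arrays and from -0.45 to 0.43 on the other PBS arrays.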
